A study of Mus musculus with 12 samples.

Results

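The neuromuscular junction and acetylcholine receptor genes were followed in mouse skeletal muscle through 10 genes: Chrna1, Chrnb1, Chrnd, Chrne, Chrng, Musk, Rapsn, Ache, Colq and Ncam1. They were chosen by name, and every probe set that the platform annotation gives to them was taken, 18 in all, out of 18193 genes on the array. Where a gene had several probe sets, the one with the highest mean over all arrays stands for it and the others are given beside it. The brightest probe set of 7 of the 10 genes lay above the filter on dim probe sets, and those 7 were among 12654 genes tested. The other 3, Chrnd, Chrng and Colq, lay below it.

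The study labelled 12 mice by genotype and by growth hormone (GH), 3 in each group: mice labelled KO for the transcription factors Stat5a and Stat5b that received GH (KO+GH), wild-type mice that received GH (WT+GH), KO mice without GH (KO) and wild-type mice without GH (WT). Skeletal muscle is the tissue in the series title, and a label on treatment speaks of blood cells as the site of the deletion. Not given are a Cre driver, a strain, sex, age, GH dose, the length of treatment and the muscle sampled. Animal numbers differ between all arrays, so the spread between arrays is taken as that between animals. Of 8 muscle fibre markers, all 8 lay above the filter.

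At the neuromuscular junction a motor axon releases acetylcholine onto a pentameric receptor in the muscle membrane. Chrna1, Chrnb1 and Chrnd encode the α, β and δ subunits that all muscle receptors hold, Chrng the γ subunit of the fetal receptor, and Chrne the ε subunit that replaces it in adult muscle. Nerve-derived agrin acts through LRP4 and the receptor kinase MuSK, with the adaptor DOK7, and rapsyn, the product of Rapsn, anchors the receptors. Acetylcholinesterase, the product of Ache, ends the signal, held in the cleft by the collagen tail ColQ or on membranes by PRiMA. NCAM is an adhesion protein that, like Chrna1, Chrng and Musk, is known to be raised along the whole fibre when muscle loses its nerve.

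The promoters of Ache, Chrna1 and Chrne are shown to give the letters before the start of Ache, called in both comparisons of KO with WT, of a subunit common to all muscle receptors and of the adult subunit, from the RefSeq table of assembly GRCm38.p6. Ache itself lies at chr5:137288247-137294466 and Musk at chr4:58285729-58377848. Each promoter ends at the base before the gene and runs 5′ to 3′ on the gene's strand. Capitals mark E-box letters (CANNTG, a form that includes sites of myogenic factors) and, in Chrne, N-box letters (CCGGAA, a form that includes sites of ETS factors such as GABP). For Musk, whose window overlaps the annotated span of the gene, only the 3 stretches around its E-box letters are given, since Musk carries the GH difference among the members.
Ache, chr5:137288004-137288246, plus strand: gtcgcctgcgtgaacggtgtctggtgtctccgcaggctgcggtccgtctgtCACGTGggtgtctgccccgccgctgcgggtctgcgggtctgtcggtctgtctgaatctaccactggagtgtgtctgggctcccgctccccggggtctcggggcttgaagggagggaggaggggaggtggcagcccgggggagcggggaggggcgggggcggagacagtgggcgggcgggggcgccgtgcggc
Chrna1, chr2:73580339-73580588, minus strand: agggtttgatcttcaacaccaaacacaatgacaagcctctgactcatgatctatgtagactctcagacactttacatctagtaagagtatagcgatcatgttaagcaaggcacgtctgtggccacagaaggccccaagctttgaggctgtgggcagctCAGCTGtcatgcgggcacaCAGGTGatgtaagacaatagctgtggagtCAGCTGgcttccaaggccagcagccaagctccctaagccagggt
Chrne, chr11:70619214-70619444, minus strand: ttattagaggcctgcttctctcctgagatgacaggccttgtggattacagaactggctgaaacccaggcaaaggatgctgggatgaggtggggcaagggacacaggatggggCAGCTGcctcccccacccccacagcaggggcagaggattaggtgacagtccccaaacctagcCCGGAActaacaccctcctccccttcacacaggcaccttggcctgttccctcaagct
Musk, chr4:58285773-58285802, plus strand: ggccgagaaaggCATCTGgtattgtccttc
Musk, chr4:58285850-58285879, plus strand: cctccagccctcCACTTGcattactggcct
Musk, chr4:58285882-58285911, plus strand: gtgagttctcccCAGCTGgccacgtccatc

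Promoter entries matched 6 of the 10 genes: Chrna1, Chrnb1, Chrne, Chrng, Musk and Ache. The windows searched were the 250 bases before the start that the table gives. Of these, 29 in Chrnb1, 19 in Chrne and 7 in Ache lie inside the annotated gene and are not printed. The Musk window overlaps its annotated gene as well, and all 3 Musk stretches printed above lie inside that gene. On both strands together, E-box letters stood 3 times each in Chrna1, Chrnb1, Chrng and Musk, and 1 time each in Chrne and Ache. Of 32851 such windows of all genes in the table, 66.2% held these letters and 12.2% held them 3 or more times. The N-box letters were found in Chrne alone of the 6 genes, and 12% of all windows held them. There they did not overlap the E-box letters. The STAT site letters TTCNNNGAA, present in 7.02% of all windows, were in none of the 6. A match is a description of letters and not of binding.

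**Figure D1:**
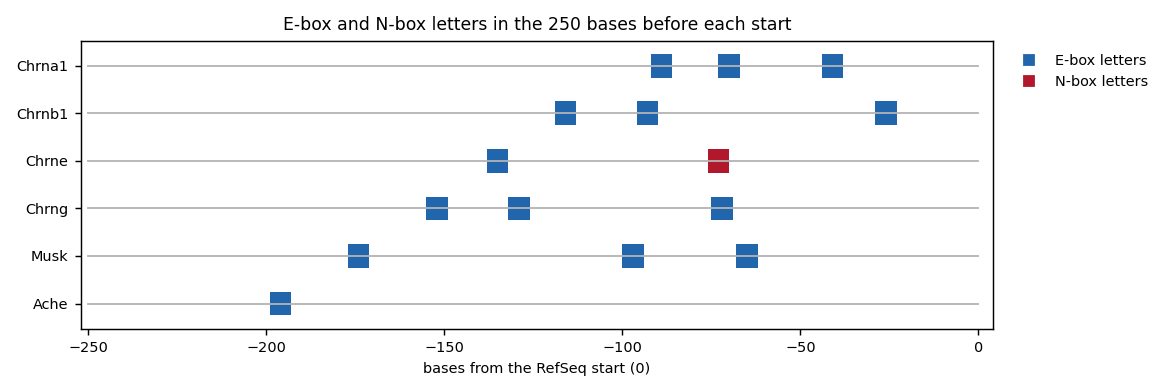
Position of E-box letters (blue) and N-box letters (red) in the 250 bases before the RefSeq start of 6 genes, with the horizontal axis in bases from the start. Chrna1, Chrnb1, Chrng and Musk hold the E-box letters 3 times, Chrne and Ache hold them 1 time, and Chrne alone holds the N-box letters.

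Stat5b RNA was lower on all KO than on all WT arrays. Its mean signal was 362 ± 25.2 in KO+GH against 1794 ± 101 in WT+GH muscle, and 428 ± 63.7 in KO against 2820 ± 162 in WT muscle (SD, n = 3 each). The values are MAS5 signals, intensities on a linear scale. Stat5a signals were 129 to 196 in KO+GH against 384 to 436 in WT+GH muscle, and 170 to 361 in KO against 561 to 730 in WT muscle. The log2 difference of Stat5a was -1.21 with GH and -1.27 without (limma adjusted p = 0.00231 and 0.00483), and the call without GH was lost when the fit held only the groups compared (limma adjusted p = 0.0576). Both genes stayed above the filter of 51.3 on the KO arrays. The 6 arrays of GH-treated mice had a median signal of 97.4 to 101.8, against 79.3 to 92.4 on the other 6, and the geometric mean of the poly-A labelling controls lay between 486.6 and 533.4 on GH arrays, against 151.0 and 173.4 on the rest. GH and the labelling of the arrays therefore cannot be told apart, in every GH comparison below. Between genotypes with GH, the actin 3′/5′ ratio, a sign of RNA integrity, was 0.962 to 1.007 in KO+GH against 0.887 to 0.932 in WT+GH, and that of Gapdh 0.795 to 0.83 against 0.842 to 0.86. Without GH these ratios overlapped, at 0.812 to 0.864 in KO and 0.805 to 0.855 in WT for actin, and 0.834 to 0.859 in KO and 0.835 to 0.877 in WT for Gapdh.

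Ache was higher in KO than in WT muscle in both GH states. Its signals were 1166, 1252 and 1172 on the KO+GH arrays, against 627, 648 and 655 on the WT+GH arrays. Without GH they were 1060, 1147 and 1018 in KO, against 617, 716 and 559 in WT muscle. All 6 KO arrays lay above all 6 WT arrays.

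On the log2 scale Ache rose in KO+GH over WT+GH muscle by 0.87 ± 0.0987 (standard error), 1.83-fold with a 95% interval of 1.58 to 2.11 and an adjusted p of 5.76e-05 in limma. Without GH it rose by 0.75 ± 0.0987, 1.68-fold with a 95% interval of 1.45 to 1.95 and an adjusted p of 0.000837 in limma. Averaged over both GH states the difference was 0.81 ± 0.0698, with a limma adjusted p of 4.24e-06. Ache passed the threshold in all 24 alternatives with GH, in all 24 without GH and in all 23 of the mean. The GH difference of Ache was 0.15 in KO and 0.03 in WT muscle, with limma adjusted p-values of 0.285 and 0.844.

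Ache was the 1 member of 7 tested that was called higher in each of these genotype comparisons. Over all 12654 genes tested, 2.42% were called higher and 2.11% lower in KO+GH against WT+GH (4.53% in either direction), and 0.774% were called higher and 0.68% lower in KO against WT (1.45%). In the mean of both, where 1 member was called in each direction, the background was 2.88% higher and 2.47% lower (5.34%). The median log2 difference of the 7 members was 0.14 with GH and 0.07 without, against medians of -0.02 and 0.00 over all genes tested. Acetylcholinesterase is made by muscle, nerve and red cells, and in whole muscle a change in the number of cells of a type and a change in RNA per cell cannot be told apart.

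Markers of red cells, motor axons and Schwann cells were read beside Ache. The summed signal of red cell markers, 3 of 6 measured and 1 above the filter, was 503 to 618 in KO+GH and 369 to 446 in WT+GH, but 245 to 439 in KO and 290 to 513 in WT muscle. That of the 8 motor axon markers, of which 2 lay above the filter, was 417 to 445 in KO+GH and 475 to 550 in WT+GH, and 370 to 451 in KO and 371 to 476 in WT muscle. Schwann cell markers summed to 8707 to 8989 in KO+GH against 7484 to 7788 in WT+GH, and to 6095 to 7228 in KO against 6201 to 7023 in WT muscle, with 7 of 10 measured. Without GH the sums of all 3 lists and both 3′/5′ ratios overlapped between KO and WT muscle. Their part in the Ache difference without GH was not tested. With GH the red cell and Schwann cell sums and the actin ratio were higher in KO+GH than in WT+GH. The motor axon sum and the Gapdh ratio were lower. Of the 7 Schwann cell markers 1, Cnp, was called higher in KO+GH over WT+GH (0.63 ± 0.121, limma adjusted p = 0.00524), beside 2.42% of all genes tested. All 7 were above 0 there, 3 of them at an unadjusted p under 0.05 in limma. Without GH 0 of the 7 were called. The 1 red cell marker tested, Alas2, was not called with GH (0.44, limma adjusted p = 0.363). Of the 2 motor axon markers above the filter 0 were called. Stmn2 had a mean of 219 in KO+GH against 232 in WT+GH, and Syt1 93.7 against 81.8. The part of these markers and ratios in the Ache difference with GH was not tested.

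**Figure D2:**
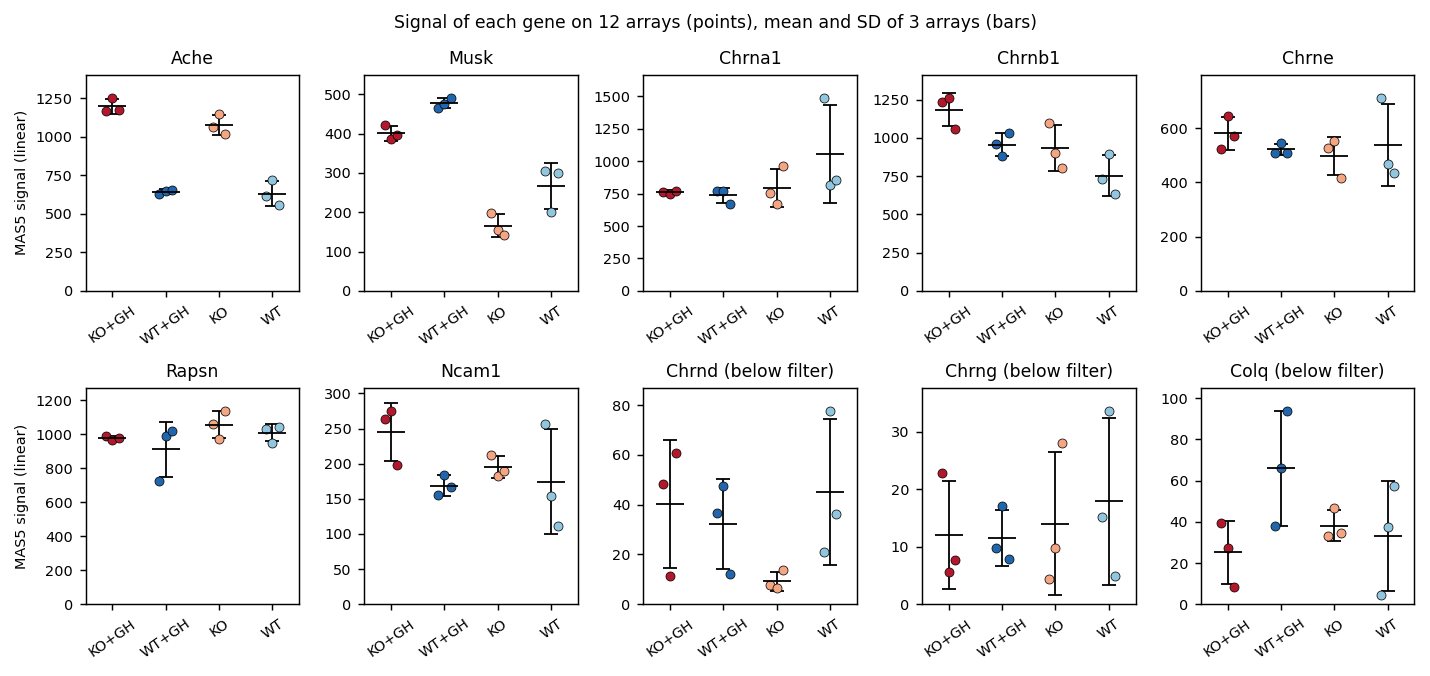
MAS5 signal (linear scale) of the brightest probe set of each of the 10 genes on 12 arrays, by group; points are arrays and bars are the mean ± SD of 3. Ache lies between 1018 and 1252 on the 6 KO arrays and between 559 and 716 on the 6 WT arrays, and Musk lies between 385 and 491 with GH and between 143 and 304 without.

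Musk was higher with GH in both genotypes. Its signals were 422, 385 and 396 on the KO+GH arrays, against 199, 155 and 143 on the KO arrays. In wild-type muscle they were 466, 476 and 491 with GH, against 304, 200 and 299 without. No group overlapped another, and the order from high to low was WT+GH, KO+GH, WT and KO.

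With GH, Musk rose by 1.17 ± 0.158 on the log2 scale in KO muscle (2.25-fold, limma adjusted p = 0.000104) and by 0.80 ± 0.158 in WT muscle (1.74-fold, limma adjusted p = 0.00264). Both calls held in all 24 alternatives, but GH and the labelling of the arrays cannot be told apart. The difference between these responses was 0.37 with a 95% interval of -0.11 to 0.85 and a limma adjusted p of 0.611. Musk was the 1 member called higher with GH in each genotype, beside 8.93% of all genes tested in KO and 7.33% in WT, and 0 members were called lower, beside 15.4% in KO and 11.8% in WT (24.3% and 19.1% in either direction). At an unadjusted p under 0.05 in limma, 0 members were lower in KO and 1, Chrna1, in WT.

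The split of GH calls over all genes moved with the scaling. In the values as scaled by the authors 1130 genes rose and 1948 fell in KO, and 927 rose and 1489 fell in WT muscle. Centring each array on the median of the genes tested, tried only once values were known, gave 1359 higher and 1362 lower in KO, and 1113 higher and 1097 lower in WT muscle. Centring on the median of all probe sets moved the median of all genes tested to -0.24 on the log2 scale in both genotypes, against -0.06 as deposited, with 643 higher and 4173 lower in KO, and 490 higher and 3939 lower in WT muscle. Musk rose under all of these, by 0.99 in KO and 0.62 in WT muscle in the last (limma adjusted p = 0.000516 and 0.013).

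Between genotypes Musk had lower signals on KO than on WT arrays in both GH states, and its calls changed with the setting. Its mean was 401 ± 18.7 in KO+GH against 478 ± 12.6 in WT+GH muscle and 165 ± 29.9 in KO against 268 ± 58.8 in WT muscle (SD, n = 3 each). The log2 differences were -0.24 ± 0.158 with GH and -0.61 ± 0.158 without, with limma adjusted p-values of 0.504 and 0.076. Without GH it passed when KO 1 (adjusted p = 0.0353 in limma) or WT 2 (adjusted p = 0.0116 in limma) was left out. The mean of both, -0.42 ± 0.112, passed in limma with an adjusted p of 0.0372, but in 9 of 23 alternatives only. Leaving out any single array other than KO 1 and WT 2 ended the call, with adjusted p-values of 0.0697 to 0.096 in limma. It did not pass without WT 1 and KO 3, the arrays of lowest quality weight, with an adjusted p of 0.106 in limma.

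Beyond the members, the agrin-MuSK pathway and the postsynaptic scaffold held 24 listed genes, of which 19 were tested. With GH, 2 rose and 2 fell in KO muscle, and 2 rose and 2 fell in WT muscle, shares near those over all genes tested (8.93% higher and 15.4% lower in KO, 7.33% and 11.8% in WT). Dok7, the adaptor that activates MuSK, had signals of 892, 1437 and 946 in KO+GH against 514, 567 and 490 in KO muscle, and of 2069, 1611 and 1644 in WT+GH against 622, 639 and 820 in WT muscle. It rose with GH by 1.0 ± 0.163 in KO and by 1.33 ± 0.163 in WT muscle on the log2 scale (limma adjusted p = 0.000515 and 6.6e-05). When its probe sets were averaged these differences were 0.61 in KO and 0.67 in WT muscle (limma adjusted p = 0.00423 and 0.00274). All GH arrays lay above all arrays without GH, as for Musk.

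Lrp4, the agrin receptor, rose with GH in WT muscle by 0.73 ± 0.167 (limma adjusted p = 0.00708). Its mean signal was 145 ± 5.35 in KO+GH against 129 ± 7.04 in KO muscle, and 235 ± 46.5 in WT+GH against 131 ± 11.7 in WT muscle (SD, n = 3 each). Etv5, an ETS factor linked to synaptic gene expression, rose with GH in KO muscle by 1.09 ± 0.202 (limma adjusted p = 0.00137), and by 0.48 when its probe sets were averaged (limma adjusted p = 0.0223). Lama4, a laminin chain of the synaptic and capillary basal lamina, fell by 0.83 in KO and 0.77 in WT muscle, and Gabpb1, a subunit of the factor GABP, by 0.40 and 0.45 (limma adjusted p = 0.043 and 0.0302). Gabpb1, named after its values were seen, held its call in 13 of 24 alternatives in KO and 17 of 24 in WT muscle. It was lost in KO without any KO+GH array, WT+GH 2, WT+GH 3, KO 1 or KO 2 (limma adjusted p of 0.0521 to 0.166) and in WT without any WT+GH array or WT 1 (0.0501 to 0.0963). Averaging probe sets ended the calls of Gabpb1 in both genotypes (limma adjusted p = 0.205 and 0.299) and of Lama4 in WT muscle, at -0.24 (limma adjusted p = 0.252), while Lama4 in KO muscle was -0.45 (limma adjusted p = 0.0309). The 15 others tested did not pass in KO or in WT muscle, apart from those named here for the other genotype, and included Agrn, with means of 183 ± 30.7 in KO+GH, 240 ± 53.2 in WT+GH, 178 ± 15.7 in KO and 223 ± 27.3 in WT muscle (SD, n = 3 each), and the dystrophin relative Utrn.

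Between genotypes 1 of the 19 pathway genes fell with GH, beside 2.11% of all genes tested, and 0 passed without GH. Without GH 1 was higher and 1 lower at an unadjusted p under 0.05 in limma. The gene that passed with GH was Dok7, lower in KO+GH than in WT+GH muscle by a log2 difference of -0.71 ± 0.163 (limma adjusted p = 0.0187). That call held in 19 of 24 alternatives and was lost when probe sets were averaged and without KO+GH 1, KO+GH 3 or WT+GH 1, at limma adjusted p-values of 0.136, 0.109, 0.104 and 0.108. Averaged over both GH states Dok7 fell by 0.55 ± 0.115 (limma adjusted p = 0.00924), in all 23 alternatives.

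Prima1, the membrane anchor of acetylcholinesterase, had its group means in the order of Musk and Dok7, with WT+GH highest and KO lowest. Its signals were 635, 656 and 602 in KO+GH against 233, 185 and 170 in KO muscle, and 770, 809 and 813 in WT+GH against 247, 441 and 376 in WT muscle. It rose with GH by 1.58 ± 0.167 in KO and by 1.15 ± 0.167 in WT muscle (limma adjusted p = 1.06e-05 and 0.00025). All GH arrays lay above all arrays without GH, and within each GH state all KO arrays lay below all WT arrays.

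For Prima1 the genotype difference averaged over both GH states was -0.54 ± 0.118 on the log2 scale (limma adjusted p = 0.0117) and passed in all 23 alternatives, against 0.81 for Ache. Without GH it was -0.76 ± 0.167 (limma adjusted p = 0.0348), a call that held in 9 of 24 alternatives. The call was lost without KO 2, KO 3, WT 2, WT 3 or any GH array, at limma adjusted p-values of 0.0556 to 0.122. It was also lost in the fit of the KO and WT groups alone (limma adjusted p = 0.32). With GH the genotype difference was -0.33 ± 0.167 (limma adjusted p = 0.353). Of the other nicotinic receptor and cholinergic genes 5 of 16 were tested, and Prima1 was the 1 called in KO against WT and in GH in each genotype. Over all genes tested 0.68% were called lower in KO against WT (1.45% in either direction). With GH 8.93% were called higher in KO and 7.33% in WT muscle (24.3% and 19.1% in either direction). Bche, the related butyrylcholinesterase, had means of 319 ± 0.711 in KO+GH, 270 ± 37.9 in WT+GH, 319 ± 27.1 in KO and 311 ± 60.7 in WT muscle (SD, n = 3 each).

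**Figure D3:**
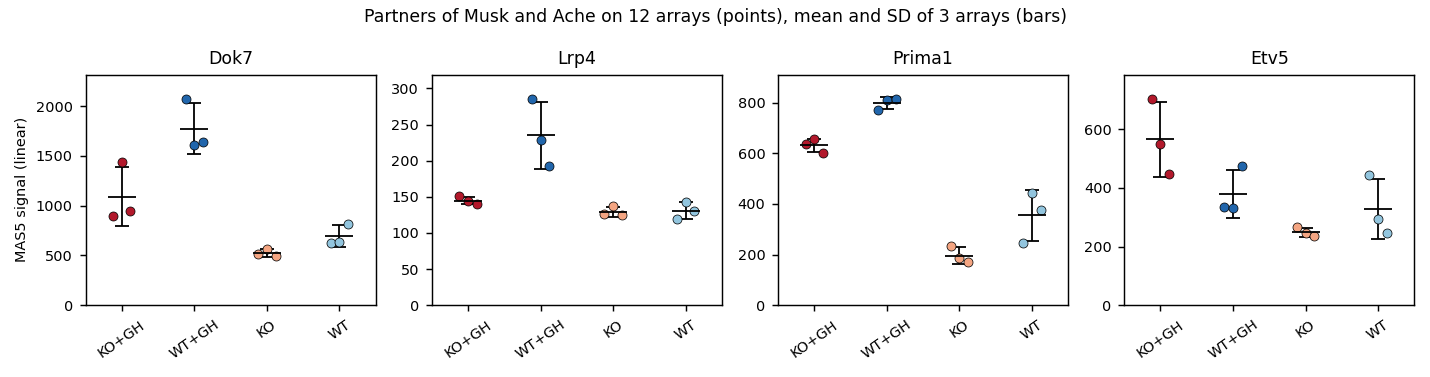
MAS5 signal (linear scale) of Dok7, Lrp4, Prima1 and Etv5 on 12 arrays by group; points are arrays and bars are the mean ± SD of 3. Prima1 lies between 602 and 656 in KO+GH and 770 and 813 in WT+GH, and between 170 and 233 in KO and 247 and 441 in WT muscle.

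Of the receptor subunit genes Chrna1, Chrnb1 and Chrne were tested, and neither these nor Rapsn passed the threshold in any of the 6 comparisons. Over all genes tested the share called in either direction ran from 0.933% in the interaction to 24.3% for GH in KO muscle. Chrna1, the α subunit that binds acetylcholine, had signals of 764, 748 and 774 in KO+GH against 770, 769 and 669 in WT+GH muscle, and of 752, 670 and 960 in KO against 1490, 815 and 858 in WT muscle. The array WT 1 stood apart from the rest. KO differed from WT by 0.05 ± 0.183 on the log2 scale with GH and by -0.36 ± 0.183 without (limma adjusted p = 0.925 and 0.483), and without WT 1 the value without GH was -0.09. For GH in WT muscle the difference was -0.45 ± 0.183 (limma adjusted p = 0.099), and it was -0.18 without WT 1. It passed without WT 2 (-0.61, limma adjusted p = 0.0413) and with median centring (-0.64, limma adjusted p = 0.00951). With that centring 3939 of 12654 genes were called lower with GH in WT muscle, and the median over all genes was -0.24.

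Chrnb1, the β subunit, had the highest values in KO+GH and the lowest in WT muscle. Its signals were 1232, 1262 and 1060 in KO+GH against 959, 880 and 1030 in WT+GH muscle, and 1099, 899 and 802 in KO against 730, 895 and 631 in WT muscle. The KO+GH arrays lay above the WT+GH arrays, while KO and WT arrays overlapped. Its genotype difference was 0.30 in each GH state and 0.30 ± 0.0957 in their mean, with limma adjusted p-values of 0.279 with GH, 0.392 without GH and 0.0885 for the mean. The mean passed in limma with array quality weights, without KO 3 and without WT 2, at adjusted p-values of 0.0312, 0.0447 and 0.0283. GH differences of 0.34 in KO and 0.35 in WT muscle had limma adjusted p-values of 0.0775 and 0.0871, and passed without KO 1 (0.0292) in KO and without WT 2 (0.0263) in WT muscle.

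Chrne, the adult subunit, had signals of 523, 646 and 572 in KO+GH against 510, 546 and 508 in WT+GH muscle, and of 525, 551 and 416 in KO against 712, 469 and 433 in WT muscle. These groups overlapped throughout, and the 4 differences between pairs of groups lay between -0.08 and 0.22 on the log2 scale. Rapsn had 993, 969 and 980 in KO+GH against 724, 989 and 1023 in WT+GH muscle, and 1063, 974 and 1138 in KO against 1034, 952 and 1042 in WT muscle, with differences between -0.16 and 0.12. For Rapsn the 95% interval of the genotype difference ran from -0.13 to 0.37 in mice with GH and from -0.18 to 0.31 in those without. With median centring Rapsn fell in WT+GH against WT muscle, at -0.34 and a limma adjusted p of 0.0333. In that setting 3939 of 12654 genes fell, and the median over all genes was -0.24.

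The fetal subunit Chrng stayed at the low end of the array in all groups. Its brightest probe set had a signal of 4.35 to 33.6 over the 12 arrays, and the other 2 of its 3 probe sets 4.83 to 41.3 and 0.723 to 24, where the filter stood at 51.3 and the pooled 25th percentile of all signals at 25.4. Chrnd, the δ subunit, had 48.2, 11.5 and 60.9 in KO+GH against 36.6, 47.6 and 12.3 in WT+GH muscle, and 7.71, 6.37 and 13.6 in KO against 20.9, 77.6 and 36.3 in WT muscle. Colq, the collagen tail, had 39.3, 27.5 and 8.58 in KO+GH against 38.2, 66.0 and 93.8 in WT+GH muscle, and 32.9, 46.8 and 34.7 in KO against 4.39, 37.7 and 57.5 in WT muscle. No detection calls were used here, so that these values are not shown to lie above background.

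Without the filter 0 of these 3 genes passed in any comparison in limma. The smallest adjusted p was 0.159, for Chrnd with GH in KO muscle (0.85 on the log2 scale). At an unadjusted p under 0.05, Chrnd was also lower in KO than in WT muscle without GH (-0.96), and Colq lower in KO+GH than in WT+GH muscle (-0.86). The KO+GH and WT+GH arrays overlapped for both genes, and the KO arrays of Chrnd lay below its WT arrays.

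**Figure D4:**
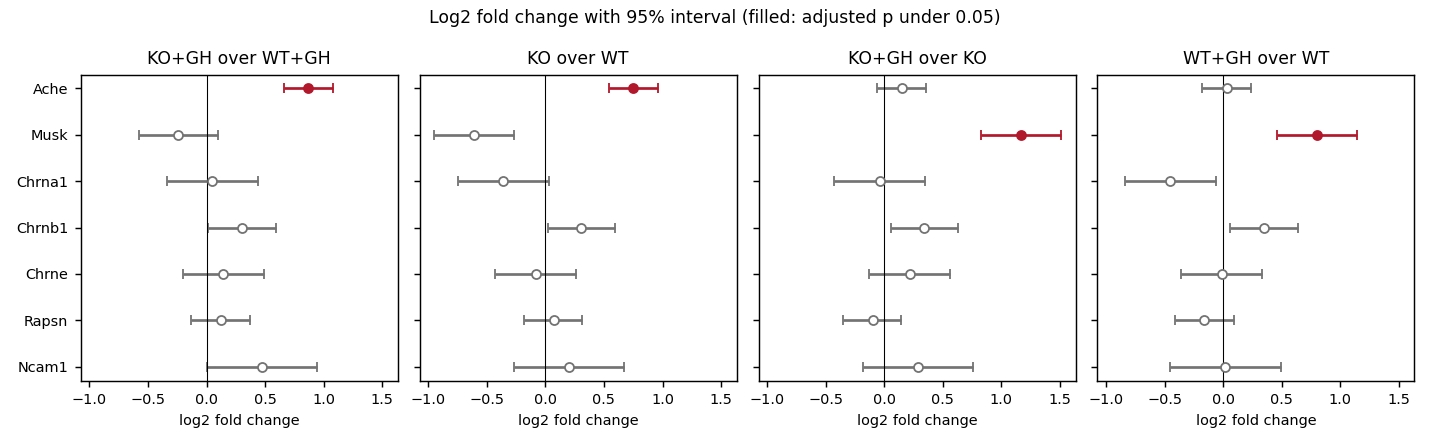
Log2 fold change (horizontal axis) with its 95% interval for the 7 genes tested, in 4 comparisons; filled red points passed an adjusted p of 0.05 in limma. Ache passed in both comparisons of KO with WT (0.87 and 0.75), Musk in both comparisons of GH (1.17 in KO and 0.80 in WT), and no other point did.

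Ncam1 was measured by 7 probe sets. The brightest had signals of 263, 275 and 198 in KO+GH against 155, 184 and 167 in WT+GH muscle, and of 213, 183 and 189 in KO against 257, 154 and 112 in WT muscle. The KO+GH arrays lay above the WT+GH arrays, and KO and WT arrays overlapped. Its difference was 0.47 ± 0.22 with GH (limma adjusted p = 0.299), 0.20 ± 0.22 without (limma adjusted p = 0.795) and 0.34 ± 0.156 in the mean (limma adjusted p = 0.274). Without WT 1 the mean was 0.48 and passed (limma adjusted p = 0.0369).

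The other Ncam1 probe sets were dimmer, and in the genotype comparisons they did not share a direction. Over all 7, KO+GH against WT+GH ran between -0.56 and 0.97, with 5 above 0 and 2 below, and KO against WT between -0.89 and 0.64, with 4 above and 3 below. GH in KO muscle ran between -0.21 and 0.78 and GH in WT muscle between -1.07 and 0.72, each with 6 above 0 and 1 below. The smallest limma adjusted p among the other 6 was 0.0652, for GH in WT muscle. Which transcripts each probe set reads was not analysed here.

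No member passed the test of the interaction, the GH difference in KO minus that in WT muscle, and 0 did so at an unadjusted p under 0.05 in limma. Of all genes tested 0.624% were called higher and 0.308% lower (0.933% in either direction). Ache had 0.12 with a 95% interval of -0.18 to 0.42. The median of the 7 members was 0.23, against -0.01 over all genes. A miss of the threshold does not show that the GH differences were equal.

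Genes outside the junction that are known to be raised in denervated muscle were read in the same comparisons. The list was written with earlier results of these data known. In KO+GH against WT+GH muscle 2.42% of all genes tested were called higher and 2.11% lower, with a median of -0.02. There, 7 of 14 tested genes of this list rose and 1 fell, with a list median of 0.78. Among them Ankrd1, a titin-associated stress protein, rose by 1.40 ± 0.163 (limma adjusted p = 7.08e-05), the myogenic factor Myf6 by 0.68 ± 0.0748 (limma adjusted p = 4.25e-05) and Myod1 by 1.05. Fbxo32, a ubiquitin ligase of muscle atrophy, fell by 1.25 ± 0.112 (limma adjusted p = 5.05e-06). Its mean was 2462 ± 48.2 in KO+GH against 5906 ± 409 in WT+GH muscle (SD, n = 3 each). Trim63, another such ligase on the list, was higher, at 19649 ± 812 in KO+GH against 13487 ± 341 in WT+GH muscle (SD, n = 3 each). Of the members named above as raised when muscle loses its nerve, 3 were tested, and 0 of 3 passed in the same comparison. Their differences were 0.05 for Chrna1, -0.24 for Musk and 0.47 for Ncam1 (limma adjusted p = 0.925, 0.504 and 0.299, and 0.0486 unadjusted for Ncam1). Among the other tested members Chrnb1 was 0.30 (limma adjusted p = 0.279, and 0.0422 unadjusted), Chrne 0.14 and Rapsn 0.12, and Ache passed at 0.87.

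Without GH, where 0.774% of all genes tested were called higher and 0.68% lower, 2 of the 14 rose and 0 fell. The list median was -0.01. At an unadjusted p under 0.05 in limma, 4 were higher and 2 lower. Sln, sarcolipin, an inhibitor of the calcium pump, rose to 888 ± 141 in KO against 383 ± 72.5 in WT muscle (SD, n = 3 each), by 1.16 ± 0.176 on the log2 scale (limma adjusted p = 0.00228, in 23 of 24 alternatives). Myf6 rose by 0.34 ± 0.0748 (limma adjusted p = 0.0315), a call held in 10 of 24 alternatives. It was lost without any KO+GH array, WT+GH 2, WT+GH 3, KO 2, KO 3, WT 1 or WT 2 (0.107 at most, without KO 3). It was also lost in the fit of the KO and WT groups alone (limma adjusted p = 0.331). Myog, myogenin, had 446 ± 66.2 in KO and 319 ± 55.1 in WT muscle (SD, n = 3 each) and did not pass. In the mean of both GH states 6 rose and 1 fell, with a median of 0.42. Over all genes tested the shares were 2.88% higher and 2.47% lower.

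Of 4 genes known to be lowered after denervation, 1 fell in KO+GH against WT+GH muscle and 2 fell in the mean of both GH states. Without GH 0 passed in limma, where 2 were lower at an unadjusted p under 0.05. Over all genes tested 2.42% were called higher and 2.11% lower with GH, 0.774% and 0.68% without, and 2.88% and 2.47% in the mean. Ppargc1a, the coactivator of mitochondrial genes, fell in KO+GH against WT+GH muscle by 0.88 ± 0.183 (limma adjusted p = 0.00969, and 0.054 without WT+GH 2). Dach2, a corepressor upstream of myogenin, had a mean difference of -0.76 ± 0.181 (limma adjusted p = 0.0215), a call held in 17 of 22 alternatives and lost without KO+GH 2, KO+GH 3, WT+GH 1 or WT 2 (0.0536 to 0.0666). Of 6 tested excitation genes, 1, the calcium channel subunit Cacnb1, rose in KO+GH against WT+GH muscle by 0.31 ± 0.0837 (limma adjusted p = 0.0492), in 9 of 24 alternatives and not without any of the 6 GH arrays in turn (0.0685 to 0.216), and 0 passed without GH in limma, where 1 was higher at an unadjusted p under 0.05.

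Early-response genes known to follow contractile activity were read in the same way. In KO+GH against WT+GH muscle 5 of 8 rose and 1 fell, with a list median of 1.33. Over all genes tested 2.42% were called higher and 2.11% lower with GH, and 0.774% and 0.68% without. Egr1 had 10328 ± 576 in KO+GH against 934 ± 70.7 in WT+GH muscle, and 496 ± 42.3 in KO against 815 ± 211 in WT muscle (SD, n = 3 each), so that its genotype difference was 3.43 ± 0.136 with GH and -0.66 ± 0.136 without (limma adjusted p = 1.5e-09 and 0.0208). Junb rose in KO muscle by 2.01 ± 0.13 with GH and by 1.03 ± 0.13 without (limma adjusted p = 1.54e-07 and 0.000558). Nr4a1 fell by 0.91 ± 0.149 in KO+GH against WT+GH muscle (limma adjusted p = 0.00168). Without GH 2 of the 8, Junb and Fos, rose and 1, Egr1, fell, and the calls of Fos and Egr1 held in 20 of 24 alternatives each. Without KO 2 or KO 3 both were lost, at limma adjusted p-values of 0.0704 and 0.0548 for Fos and 0.0591 and 0.084 for Egr1. Both were also lost in the fit of the KO and WT groups alone (limma adjusted p = 0.171 for Fos and 0.268 for Egr1). With eBayes lacking trend and robust settings they were lost too (limma adjusted p = 0.0661 and 0.0932).

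With GH, 9 of 14 denervation list genes rose and 2 fell in KO muscle, and 7 rose and 2 fell in WT muscle. Over all genes tested 8.93% were called higher and 15.4% lower in KO, and 7.33% and 11.8% in WT muscle. The list medians were 0.88 in KO and 0.35 in WT muscle, against -0.06 over all genes tested in each. Of this list Ankrd1 rose by 3.49 ± 0.163 in KO and by 2.09 ± 0.163 in WT muscle (limma adjusted p = 3.96e-09 and 9.75e-07). Gadd45a, a stress gene, rose by 2.57 ± 0.162 in KO and by 1.43 ± 0.162 in WT muscle (limma adjusted p = 6.06e-08 and 3.4e-05), and Cdkn1a, a cell cycle inhibitor, by 2.0 ± 0.196 and 1.40 ± 0.196 (limma adjusted p = 7.28e-06 and 0.000235). Hdac9, a corepressor listed as lowered after denervation, fell by 1.63 ± 0.256 in KO and 1.25 ± 0.256 in WT muscle (limma adjusted p = 0.000366 and 0.00336). Of the 8 contractile activity genes, 4 rose and 1 fell with GH in KO muscle (median 1.44). In WT muscle 1 rose and 0 fell (median 0.26). In KO muscle Egr1 rose by 4.31, Atf3 by 2.08 and Junb by 1.92 (limma adjusted p = 3.24e-11, 0.00425 and 9.68e-08). Of the excitation genes Kcnj11, a subunit of the ATP-sensitive potassium channel, fell by 1.27 ± 0.082 in KO and 0.98 ± 0.082 in WT muscle (limma adjusted p = 6.07e-08 and 1.62e-06), and the chloride channel Clcn1 by 0.33 ± 0.108 and 0.67 ± 0.108 (limma adjusted p = 0.0402 and 0.000607). The Clcn1 call in KO muscle held in 14 of 24 alternatives and was lost without KO 1 (limma adjusted p = 0.178), any KO+GH array, WT+GH 2 or WT+GH 3.

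Cell markers were read beside the GH differences. Schwann cell markers rose in 4 of 7 genes in KO and 2 of 7 in WT muscle, beside 8.93% and 7.33% over all genes. Among these markers Mbp, a myelin protein, rose by 0.84 in KO and 0.55 in WT muscle. Macrophage markers summed to 3970 to 4048 in KO+GH and 4162 to 4478 in WT+GH, against 5053 to 6350 in KO and 5395 to 7383 in WT muscle. Of the muscle fibre markers 5 of 8 fell with GH in KO muscle and 0 in WT muscle in limma, where 3 were lower at an unadjusted p under 0.05, beside 15.4% and 11.8% called lower over all genes, a share that moved with the scaling. Satellite cell markers summed to 4727 to 4886 in KO+GH, 4186 to 4537 in WT+GH, 3892 to 4769 in KO and 3432 to 4018 in WT muscle, so that they overlapped between KO+GH and KO, and 0 of 5 tested were called in KO and 1 in WT muscle. At an unadjusted p under 0.05 in limma, 2 of these were higher in KO. The part of these markers in the GH differences of Musk, Dok7 and Prima1 was not tested.

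**Figure D5:**
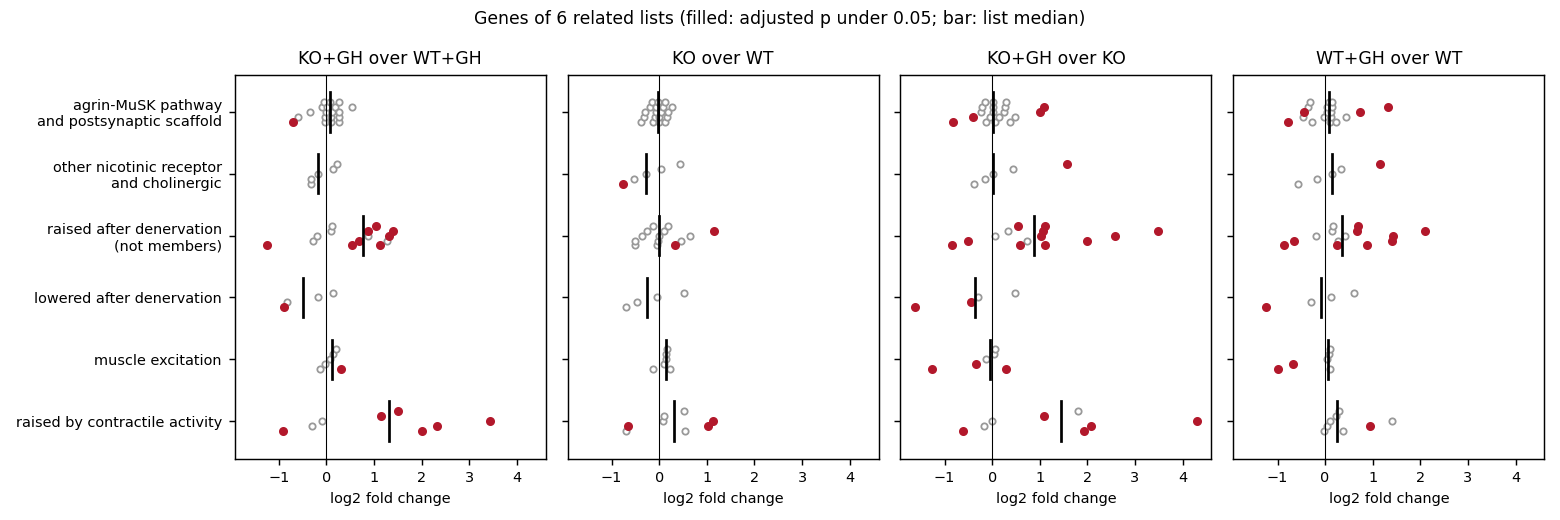
Log2 fold change of each tested gene of 6 lists in 4 comparisons; filled red points passed an adjusted p of 0.05 in limma and bars are list medians. The denervation list has a median of 0.78 in KO+GH over WT+GH and -0.01 in KO over WT, and the contractile activity list 1.33 and 0.32.

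Patterns over the arrays differed between the members. Over 12 arrays the Pearson correlations between pairs of the 7 tested members ran from -0.55 (Chrna1 with Chrnb1) to 0.71 (Chrne with Ncam1), and that of Musk with Ache was -0.29. The arrays share the 4 groups and the split in labelling controls, so that these are descriptions. Of 12653 other genes, Hs6st2 and Fgfbp1 followed Ache most closely (r = 0.97 and 0.96), and after group means were taken out r was 0.44 and -0.082. Lgals3 and Gpt2 followed Musk most closely (r = 0.981 and 0.971), and within groups r was 0.814 and 0.943. For Chrna1 these were Slc11a1 and Tgfbi (r = 0.966 and 0.952), with 0.952 within groups for each, where WT 1 lay far from the other arrays. For Chrnb1 they were Hspb7 and Camk2b (r = 0.922 and 0.883), for Chrne Minpp1 and Zbtb46 (r = 0.925 and 0.885), for Rapsn Rrn3 and Alox5 (r = 0.941 and 0.936), and for Ncam1 Fgfr4 and Abcg8 (r = 0.934 and 0.889).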

How the data were processed

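RNA from 12 mice was measured on 12 1-colour Affymetrix mouse arrays. The deposited table gives a MAS5 intensity, not logged, of 45101 probe sets, made with MAS5 per the submitters' processing notes. The version and settings are not given in the sources used here. The trimmed mean of every array was 500, which shows scaling by the authors. With 3 arrays in a group, precision is set by their number.

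Control probe sets (64), probe sets with several symbols (932) and those with none (9160) were left out. The other 34945 belong to 18193 genes, of which 204 symbols were kept as annotated. Each gene was represented by its brightest probe set, and genes were kept if that mean passed the 40th percentile (6.253 in log2, a signal of 51.3).

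Values were taken as log2(signal + 25) and fitted with limma 3.58.1 (R 4.3.3, which loaded statmod 1.5.0): 1 mean for each of the 4 groups, 8 residual degrees of freedom, eBayes with trend and robust settings, 2-sided p-values adjusted by Benjamini-Hochberg over 12654 genes, threshold 0.05. Fold changes understate the change of dim genes. The step was also run on simulated arrays, with independent noise around the mean of each gene and known changes added. They held no array effects and no split in labelling, so that run does not show how the fit behaves under these. The 6 comparisons were KO against WT with and without GH, GH in KO and in WT, their interaction and the mean genotype difference. Up to 24 alternatives were tried for each.

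All 10 members are named. Of each wider list, up to 3 genes per comparison with the smallest p past the threshold are named, or 1 as a value where none passed. Agrn, Utrn, Bche, Gabpb1, Myog, Trim63 and Myod1 (with GH) were named after their values were seen. The 2 genes most like each tested member are those of highest Pearson r. The members and lists were chosen with earlier results of these data known. Replicate numbers follow the order of the samples and pair nothing.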

Additional observations from a re-analysis of the deposited data

Results flagged for a closer look

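The difference between GH in KO and GH in WT muscle passed limma's threshold for 7 genes of the denervation and activity lists. These lists were written with earlier results of these data known. Of 14 tested denervation genes 3 were called higher and 1 lower, and of 8 activity genes 2 higher and 1 lower. Over all genes tested 0.624% were called higher and 0.308% lower (0.933% in either direction). On the log2 scale the difference was 4.10 for Egr1 (limma adjusted p = 1.77e-08), 1.41 for Ankrd1 (limma adjusted p = 0.00576), 1.41 for Myod1 (limma adjusted p = 0.00961), 1.14 for Gadd45a (limma adjusted p = 0.0256), 0.98 for Junb (limma adjusted p = 0.0141), -0.99 for Fbxo32 (limma adjusted p = 0.00445) and -0.99 for Nr4a1 (limma adjusted p = 0.0379). Egr1, Ankrd1 and Fbxo32 passed in all 23 alternatives, Junb and Myod1 in 21, Gadd45a in 13 and Nr4a1 in 9. Junb was lost without KO+GH 2 (limma adjusted p = 0.0526), and Nr4a1 without any single array other than WT+GH 2, KO 1 and WT 3 (limma adjusted p of 0.0688 to 0.115). Gadd45a, named after its values were seen, was lost with eBayes lacking trend and robust settings (limma adjusted p = 0.11) and without any single array other than KO+GH 3, WT+GH 3, KO 1 and WT 3 (limma adjusted p of 0.0503 to 0.0976). Myod1 was lost with the mean of all probe sets, at an adjusted p of 0.634 in limma.

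For Chrna1 and Colq every array of KO against WT with GH lay on the other side of 0 from every array of KO against WT without GH, each array being set against the mean of the group it was compared with. The effect with GH minus that without was 0.41 for Chrna1 and -1.10 for Colq. By array the Chrna1 effects with GH were only 0.03 to 0.07. Without GH its WT mean held WT 1, at 1490 against 815 and 858 on the other WT arrays. KO 3, at 960, lay above both of those. Leaving out WT 1 brought the Chrna1 difference without GH to -0.09. For Chrna1 the interaction in limma had an adjusted p of 0.629, and for Colq, below the filter, 0.6 in the fit without the filter. Colq's signals with and without GH lay near the low end of the array.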

How the results depend on the processing

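Of 1024 alternative values of member log2 fold changes, 943 kept their direction and side of the threshold, 52 reversed, 14 lost and 15 gained a call. No paired analysis was possible because each array carries an animal number of its own and the replicate numbers pair no animals. The number of members called moved as follows. For GH in WT, 2 rose with array quality weights (1 to 2 without a replicate), and 2 fell with median centring (0 to 1 without a replicate). Of all 12654 genes tested, 1177 rose there with the weights and 3939 fell with median centring. For GH in KO, 2 rose with array quality weights and with centring on the genes tested (1 to 2 without a replicate). With the weights 1581 of 12654 genes rose in KO. For the mean genotype difference, 2 rose with array quality weights and without WT 1 and KO 3 together (1 to 2 without a replicate), and 0 fell without the filter, with median centring, with eBayes lacking trend and robust settings, and without WT 1 and KO 3 together (0 to 1 without a replicate). In this mean 575 of 12654 genes rose with the weights. With median centring 239 fell, and with eBayes lacking those settings 247 fell. For KO against WT without GH, 0 to 1 fell without a replicate. The added riser was Chrnb1 under weights and under centring on the genes tested, and Ncam1 without WT 1 and KO 3 together; the genes that fell with median centring were Chrna1 and Rapsn, and the gene whose fall between genotypes was lost or gained was Musk. The causes were not tested.

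Direction turned for these uncalled values. Chrna1 with GH in KO was 0.05 with array quality weights, 0.10 without WT 1 and KO 3 together and 0.01 with centring on the genes tested. The Chrnb1 interaction was 0.00 with a pseudocount of 100 and with median centring. Chrne in KO against WT without GH was 0.12 with array quality weights and 0.24 without WT 1 and KO 3. Its GH value in WT was 0.13 with weights, 0.20 without those arrays and 0.04 with centring on the genes tested, and its interaction was -0.10 without those arrays. With median centring Ache was -0.15 for GH in WT and -0.03 for GH in KO. Ncam1 for GH in WT was -0.17 with median centring and -0.11 with quantile normalization, and its interaction was -0.03 without WT 1 and KO 3. Its other probe sets gave -0.05, -0.89 and -0.08 for KO against WT without GH, -0.46 and -0.56 with GH, -1.07 for GH in WT, -0.21 for GH in KO, -0.41 and -0.48 for the interaction, and -0.25 and -0.32 for the mean.

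Leaving out 1 replicate in turn gave ranges across 0 for Chrna1 in KO against WT with GH (-0.01 to 0.08) and GH in KO (-0.15 to 0.10), for the Chrnb1 interaction (-0.13 to 0.12), for Chrne in KO against WT without GH (-0.22 to 0.13), GH in WT (-0.15 to 0.20) and the mean (-0.04 to 0.14), for Rapsn in KO against WT with GH (-0.04 to 0.21) and the interaction (-0.10 to 0.14), for Ache with GH in WT (-0.05 to 0.13), and for Ncam1 in KO against WT without GH (-0.03 to 0.49), GH in WT (-0.22 to 0.30) and the interaction (-0.01 to 0.51). Dim signals limit Chrnd, Chrng, Colq and 6 of the Ncam1 probe sets.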
